A study of Mus musculus with 16 samples.

Results

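The 8 genes described here code for cell-surface proteins that read or clear extracellular nucleotides and adenosine: the ADP receptors P2ry12 and P2ry13, the UDP receptor P2ry6, the ATP-gated channels P2rx4 and P2rx7, the ectonucleotidases Entpd1 and Nt5e, and the adenosine receptor Adora3. They were chosen by name from the 18580 genes in the tables, and all 8 were found in at least 1 library. RNA was sequenced by SMART-seq2, which copies full-length mRNA from little input, in macrophages (CD11b+, CD45 high) and microglia (CD11b+, CD45 low or intermediate) sorted from mouse brain. The mice were WT (C57BL/6N littermates) or CD163KO (CD163tm1.1(KOMP)Vlcg, without the scavenger receptor CD163 in any cell), male or female, 12 weeks old at surgery, and all received α-syn into the striatum of both hemispheres, as monomers (MONO) or as pre-formed fibrils (PFF). The brains were taken 2 months p.i., from 7 mice per WT group and 5 per CD163KO group, with 4 in the male CD163KO MONO group. No uninjected or PBS library was used here. The 16 libraries were 1 per population in each of 8 groups of mice, so no group had a replicate of its own. The methods speak of triplicates and of batches of mice, and how either maps onto these 16 libraries is not given in the sources used here.

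ATP and ADP leak or are released from stressed and active cells. Entpd1 (CD39) removes phosphates from ATP and ADP to give AMP, and Nt5e (CD73) turns AMP into adenosine, so that the same nucleotide is seen in turn by P2X channels, P2Y receptors and adenosine receptors. In the brain, P2ry12 guides microglial processes towards ADP and is a standard marker of microglia, P2ry6 is tied to uptake of debris, and P2rx7 to release of interleukin-1β.

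The levels differed first by population. P2ry12, P2ry13, Entpd1 and Adora3 were higher in microglia and P2rx4 was lower (adjusted p below 0.05 for each), while P2ry6, P2rx7 and Nt5e did not pass the test on counts. No member passed a test of treatment, genotype or sex in either population. P2ry12, P2ry13 and Adora3 were the members whose 8 microglia libraries all lay above the 8 macrophage libraries on both scales used here, and the 250 bases before their start sites are shown for this reason (RefSeq, GRCm38.p6). P2ry12 and P2ry13 are neighbours on the minus strand of chromosome 3, 5388 bases apart, and Adora3 lies on the plus strand of the same chromosome. Capitals mark GAGGAA on either strand, a core letter string bound by the myeloid factor PU.1.
P2ry12, chr3:59262986-59263235, minus strand: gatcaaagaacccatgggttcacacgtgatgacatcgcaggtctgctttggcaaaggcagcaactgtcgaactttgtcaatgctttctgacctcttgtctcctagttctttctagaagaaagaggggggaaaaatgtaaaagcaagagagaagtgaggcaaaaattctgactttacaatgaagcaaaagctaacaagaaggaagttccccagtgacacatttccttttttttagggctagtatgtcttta
P2ry13, chr3:59210883-59211132, minus strand: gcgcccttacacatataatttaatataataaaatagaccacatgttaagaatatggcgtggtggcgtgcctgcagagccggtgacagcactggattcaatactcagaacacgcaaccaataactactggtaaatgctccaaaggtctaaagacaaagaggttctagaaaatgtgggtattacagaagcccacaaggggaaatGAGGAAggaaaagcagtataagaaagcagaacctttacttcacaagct
Adora3, chr3:105904171-105904420, plus strand: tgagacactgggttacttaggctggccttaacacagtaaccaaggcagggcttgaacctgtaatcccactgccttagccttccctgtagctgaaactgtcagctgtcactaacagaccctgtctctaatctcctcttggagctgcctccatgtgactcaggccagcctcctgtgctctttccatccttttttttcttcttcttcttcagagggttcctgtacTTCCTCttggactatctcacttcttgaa
GAGGAA began 48 bases before the start of P2ry13, and its reverse complement began 28 bases before the start of Adora3. The window of P2ry12 held neither, which says only that these letters are not in these 250 bases. GAGGAA was in 23.3% of all 32817 windows of this length, and in 3 of the 9 windows that matched 7 of the 8 members, the third being a second start of Entpd1. The GC content was 41.6% for P2ry12, 41.6% for P2ry13 and 48.8% for Adora3, against a median of 52.4% over all windows. Matches are descriptions of letters and not of binding.

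The libraries were checked before the levels were compared. Estimated counts summed to 12170686 to 21433841 per macrophage library and 8648751 to 18768238 per microglia library, and counting error at these depths is small for all members but Nt5e and Adora3. Reads that PCR copied from 1 molecule count separately here, and the bounds below cover counting error alone. Cd163 had 748 to 5275 counts in WT macrophages and at most 1 in CD163KO macrophages. It had 0 to 101 counts in WT and 5 to 23 in CD163KO microglia, so microglia do not check the genotype. The microglia library labelled female CD163KO MONO held 799 counts of 4 Y-linked genes, against at most 2 in the other libraries labelled female. Microglia libraries labelled male held 434 to 1997. The female CD163KO MONO microglia library enters the tests below as labelled, both by sex and within its matched group. The sum of 12 microglia markers was 17952 to 42249 FPKM (counts scaled to transcript length and library size) in microglia and 1164 to 2638 in macrophages. The sum of 12 border-associated macrophage markers was 1902 to 5290 FPKM in macrophages and 29.7 to 172.8 in microglia. The macrophage gate also held other leukocytes: the sum of 12 neutrophil markers was 22103 to 134460 FPKM there, with 1050 to 2857 in microglia. Choroid plexus transcripts were present too. The sum of 6 such markers was 84.9 to 12617 FPKM in macrophages and 263 to 2523 in microglia. Macrophage levels below are therefore levels of a mixture, in which fewer cells of a type and less RNA per cell cannot be told apart.

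The male WT PFF and male CD163KO MONO libraries stood apart, by different measures in the 2 populations. In macrophages their log2(FPKM + 1) correlated across genes with the other 6 libraries at r = 0.71 to 0.79, against 0.91 to 0.95 among those 6. In microglia they did not stand apart by this measure: r was 0.97 between the 2, 0.86 to 0.93 with the other 6 and 0.87 to 0.97 among those 6. There they differed in their TMM scaling factors, 0.46 and 0.85 against 1.64 to 1.80 in the other 6. The study left male CD163KO MONO out, and so do the tests here, which use 7 matched groups. Results are also given without male WT PFF.

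P2ry12, the Gi-coupled ADP receptor, was the most abundant member in microglia. Its level was 1247 FPKM in the lowest microglia library (female WT PFF), 1740 at the median and 3532 in the highest (male WT PFF, n = 8). In macrophages it was 14.4 FPKM (male CD163KO PFF) to 102.5 (male WT PFF), with a median of 43.3. The populations did not overlap. On counts, P2ry12 was higher in microglia by 4.14 ± 0.47 on the log2 scale (SE, 7 matched groups, 17.7-fold, edgeR adjusted p = 9.63e-05), and by 3.79 ± 0.24 without male WT PFF (adjusted p = 1.92e-07). Of 13704 genes tested in this comparison, 6.64% were higher in microglia and 11.6% lower, and of the 8 members 4 were higher and 1 was lower. The median over all genes differed between fits: it was 0.37 on the log2 scale in this one, 0.19 without male WT PFF, and 0.89 when FPKM as deposited were compared with limma. Relative to the median of all genes, the difference of P2ry12 was 3.77 on counts and 4.70 on FPKM, where the difference itself was 5.59 ± 0.33 (48.2-fold, limma adjusted p = 2.66e-07).

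P2ry13, a second Gi-coupled ADP receptor, came next in microglia, at 576 to 876 FPKM with a median of 705. In macrophages it ranged from 37.0 to 186.5 FPKM, with a median of 56.5 and the highest value in male CD163KO MONO. These ranges did not overlap either. P2ry13 was higher in microglia by 2.27 ± 0.44 (log2, SE, 4.82-fold, edgeR adjusted p = 0.0036), and on FPKM as deposited by 3.74 ± 0.32 (13.3-fold, limma adjusted p = 5.44e-06). Without male WT PFF the difference was 1.88 ± 0.20 (adjusted p = 9.22e-06). The macrophage level of P2ry13 was 4.44% to 30.9% of that in the matched microglia library, against 1.02% to 3.97% for P2ry12.

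Adora3, the Gi-coupled A3 adenosine receptor, was nearly confined to microglia among these 16 libraries. It was at 12.8 FPKM in male WT PFF microglia, 26.4 in male CD163KO MONO and 63.5 to 83.9 in the other 6. In macrophages it was at 0 in these same 2 male groups and at 0.51 to 1.63 FPKM in the other 6. Every microglia library lay above every macrophage library. The difference was 5.06 ± 0.74 (log2, SE, edgeR adjusted p = 5.43e-04), and 4.58 ± 0.26 without male WT PFF (adjusted p = 8.78e-08). Because 1 of the 7 macrophage libraries tested had a count of 0, the fitted fold change depends on the prior count.

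Entpd1, which starts the breakdown of ATP and ADP, was at 58.7 to 233.1 FPKM in microglia, with a median of 190.2. In macrophages it was at 14.4 to 97.4 FPKM, with a median of 23.3. As FPKM the ranges overlapped through the 2 libraries that stood apart. In the other 6 matched groups, microglia had 167.1 to 233.1 FPKM and macrophages 14.4 to 29.6. Entpd1 was higher in microglia by 1.44 ± 0.20 (log2, SE, 2.71-fold, edgeR adjusted p = 3.87e-04) and by 1.45 ± 0.17 without male WT PFF. On FPKM as deposited it was higher by 2.77 ± 0.49 (6.82-fold, limma adjusted p = 7.99e-04). After TMM scaling, which sets libraries to a shared level of most genes, all 8 microglia libraries were above all 8 macrophage libraries.

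**Figure D1:**
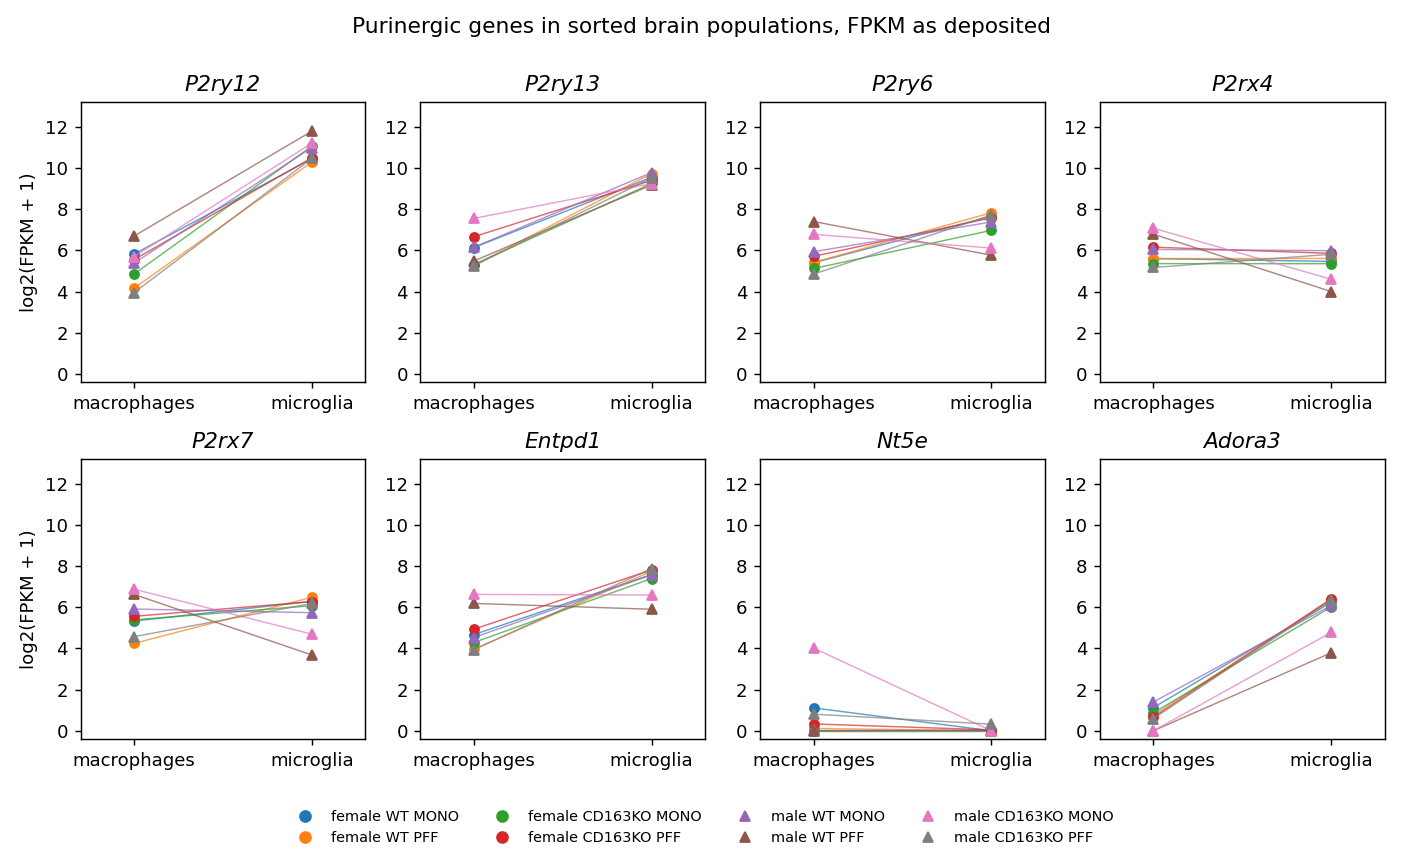
Level of each member as log2(FPKM + 1) in macrophages and microglia, 1 point per library, with a line joining the 2 libraries of a matched group (circles female, triangles male). P2ry12, P2ry13 and Adora3 separate the populations in all 8 matched groups, and the male WT PFF and male CD163KO MONO lines run against the others for P2ry6.

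The non-overlap of all 8 libraries with microglia above was reached by 4.31% of 13430 genes as FPKM (3 members) and by 6.13% after TMM scaling (4 members). The reverse was reached by 2.16% of genes as FPKM (no member) and by 4.8% after scaling (P2rx4).

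P2rx4, the ATP-gated channel known from microglia in pain models, was at 15.0 to 62.3 FPKM in microglia (median 45.4) and at 35.0 to 133.8 FPKM in macrophages (median 56.3). As deposited the populations overlapped, and microglia were higher in 2 of 8 matched groups. After TMM scaling, microglia had 23.2 to 35.2 and macrophages 61.0 to 124.9 scaled FPKM, with microglia lower in every group. On counts P2rx4 was lower in microglia, with a log2 difference of -1.76 ± 0.23 (SE, edgeR adjusted p = 2.5e-04). On FPKM as deposited the difference was -0.38 ± 0.45 (limma, adjusted p = 0.482), and the call was lost. That fit changes the tool, the input and the scaling together, and with RLE scaling of the counts the call was kept (-1.69, edgeR adjusted p = 4.86e-04). Relative to the median of all genes it was -2.14 on counts and -1.27 on FPKM.

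P2ry6, the Gq-coupled UDP receptor, was at 53.4 to 226.6 FPKM in microglia (median 178.2) and at 27.7 to 168.0 FPKM in macrophages (median 46.4). The microglia library was the higher in 6 of 8 matched groups, all but the 2 that stood apart. On counts the log2 difference was 0.22 ± 0.20 (SE, edgeR adjusted p = 0.494). On FPKM it was 1.58 ± 0.50 and passed (limma, adjusted p = 0.0205). Relative to the median of all genes, P2ry6 lay at -0.16 on counts and 0.69 on FPKM.

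P2rx7, the channel that opens at high ATP, was at 11.8 to 88.4 FPKM in microglia (median 69.1) and at 17.9 to 116.2 FPKM in macrophages (median 43.4). Its log2 difference was -0.43 ± 0.31 on counts (SE, edgeR adjusted p = 0.354) and 0.44 ± 0.55 on FPKM (limma, adjusted p = 0.504), so neither fit gave it a direction. Relative to the median of all genes both values were below 0, at -0.81 and -0.45.

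Nt5e, which makes adenosine from AMP, was at or near 0 in microglia. It had no count in 5 of 8 microglia libraries and at most 14 (0.25 FPKM, male CD163KO PFF). Among macrophages it was at 15.2 FPKM (1016 counts) in male CD163KO MONO, at 1.16 in female WT MONO and at 0.75 or less in the other 6, with 2 libraries at 0. It entered the test between populations through its macrophage counts alone, since it did not pass the filter in microglia. The fitted value without male CD163KO MONO was -4.14 ± 2.08 (log2, SE, edgeR adjusted p = 0.2) and depends on the prior count. An adjusted p below 0.05 without male WT PFF, whose macrophage library had no Nt5e count, or with DESeq2 is for the same reason not read as a difference. In male CD163KO MONO macrophages the sum of 4 B cell markers was 135.2 FPKM, against 11.2 to 62.8 in the other macrophage libraries, although the CD11b gate selects against most B cells. The sum of 8 monocyte markers was highest there too, at 3063 FPKM against 305.6 to 1713. The part of either in the Nt5e level was not tested.

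**Figure D2:**
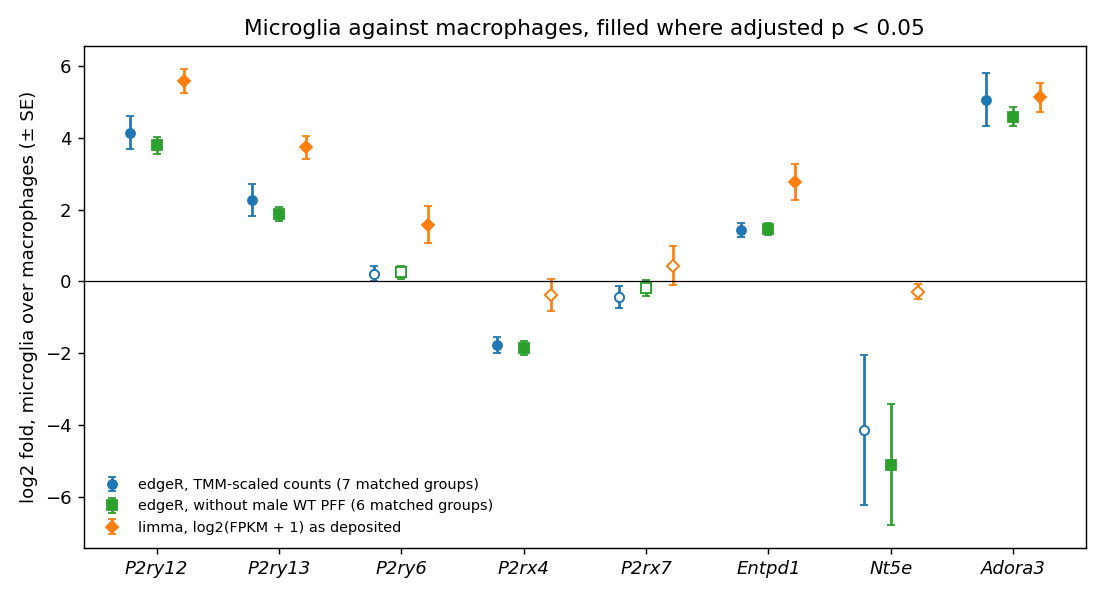
Log2 fold of microglia over macrophages for each member with its SE, by edgeR on 7 matched groups, by edgeR on 6 without male WT PFF, and by limma on log2(FPKM + 1), filled where the adjusted p was below 0.05. P2ry12, P2ry13, Entpd1 and Adora3 are filled and above 0 in all 3 fits, P2rx4 is filled and below 0 on counts, P2ry6 is filled on FPKM, and Nt5e, which passed the count filter in macrophages alone, is filled without male WT PFF.

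Within microglia, the order of levels per length was P2ry12, P2ry13, Entpd1, P2ry6, Adora3, P2rx7, P2rx4 and Nt5e. P2ry12 was above P2ry13, P2ry13 above Entpd1, P2ry6 above Adora3 and P2rx4 above Nt5e in 8 of 8 libraries. Entpd1 exceeded P2ry6 in 6, Adora3 exceeded P2rx7 in 5 and P2rx7 exceeded P2rx4 in 6, so these neighbours were not ordered in every library. In macrophages the medians of P2ry13, P2rx4, P2ry6, P2rx7 and P2ry12 lay between 43.3 and 56.5 FPKM, and neighbours changed places in 1 to 3 of 8 libraries. Entpd1 followed at 23.3 FPKM, and Adora3 (0.62) and Nt5e (0.17) were far lower.

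Macrophage levels were also set beside those of microglia markers in the same libraries. Tmem119, a microglial membrane protein, was in macrophages at 0.93% to 5.75% of its matched microglia level (median 1.86%). Olfml3, a secreted protein of microglia, was at 1.64% to 8.73% (median 2.67%), and Sall1, their transcription factor, at 0.07% to 4.69% (median 0.24%). The medians of P2ry12 (2.08%) and Adora3 (0.75%) lay between those of Sall1 and Olfml3. P2ry13 (7.79%), Entpd1 (12.2%) and P2ry6 (27.0%) had higher medians. The part of microglia within the macrophage gate in these levels was not tested.

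**Figure D3:**
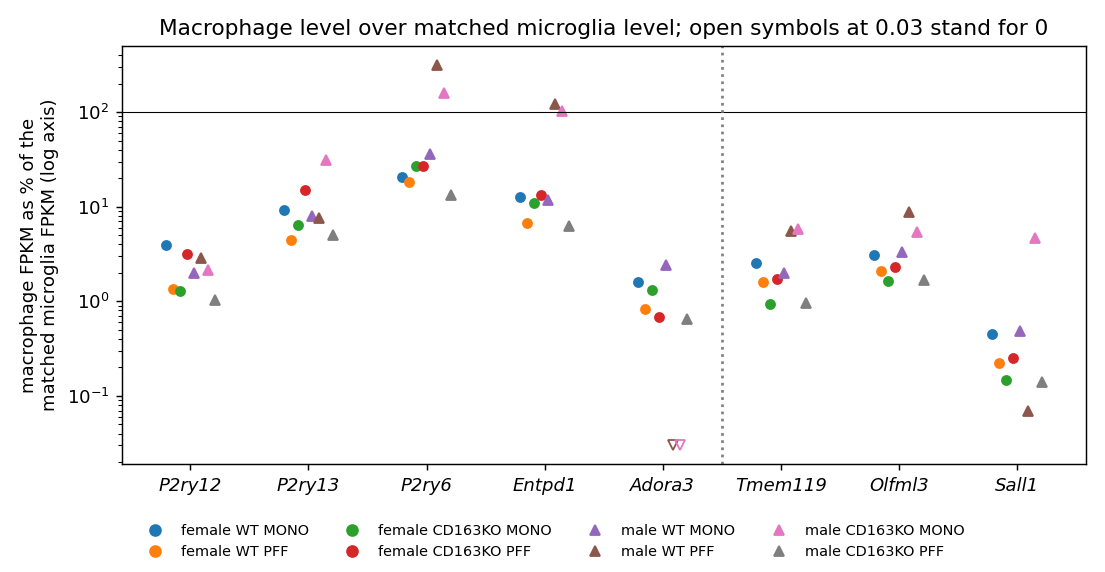
Macrophage FPKM as a percentage of the matched microglia FPKM on a log axis, for 5 members and 3 microglia markers (right of the dotted line), 1 symbol per matched group (circles female, triangles male), with open symbols for 0. P2ry12 lies at the level of Tmem119 and Olfml3, while P2ry6 and, by less, Entpd1 exceed 100% in male WT PFF and male CD163KO MONO.

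RSEM also splits counts among the RefSeq transcripts of a gene. P2ry12 had 4 transcripts of 2361 to 2557 bases. The 2361-base transcript (NM_001357007) took 73.3% to 88.8% of P2ry12 counts in microglia. In macrophages it took 68.7% in male WT PFF and 0% to 29.0% in the other 7 libraries. Its share was higher in microglia in 7 of 7 matched groups, by 51.2 ± 19.6 percentage points (SD, n = 7, two-sided exact sign-flip permutation p = 0.0156, the smallest that 7 groups allow). The 2557-base transcript (NM_001357008) took 0.64% to 7.23% in microglia and 26.5% to 42.5% in macrophages, a difference of -28.3 ± 4.24 points (exact permutation p = 0.0156, n = 7). P2rx7 had 5 transcripts. The 2568-base one (NM_001038839) took 45.6% to 75.5% of counts in microglia and 5.23% to 59.7% in macrophages, and was higher in microglia in 7 of 7 groups, by 17.4 ± 15.7 points (SD, n = 7, exact permutation p = 0.0156). The shortest (NM_001038887, 824 bases) took 0% to 5.29% of counts in microglia and 1.85% to 28.7% in macrophages. It was lower in microglia in 6 of 7 groups, by 16.4 points in the mean (SD 10.5, n = 7, exact permutation p = 0.0312). Over the 14 transcripts of P2ry12, P2rx7, P2rx4 and Entpd1, the lowest adjusted p of the exact permutation test was 0.0625 in 7 groups, so none passed the correction. With male CD163KO MONO added, the 8 groups allow smaller p-values, and NM_001357007, NM_001357008 and NM_001038839 passed (exact permutation test, adjusted p = 0.0365 for each). The transcripts share most of their sequence, these shares are estimates, and they were singled out after their values were seen.

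**Figure D4:**
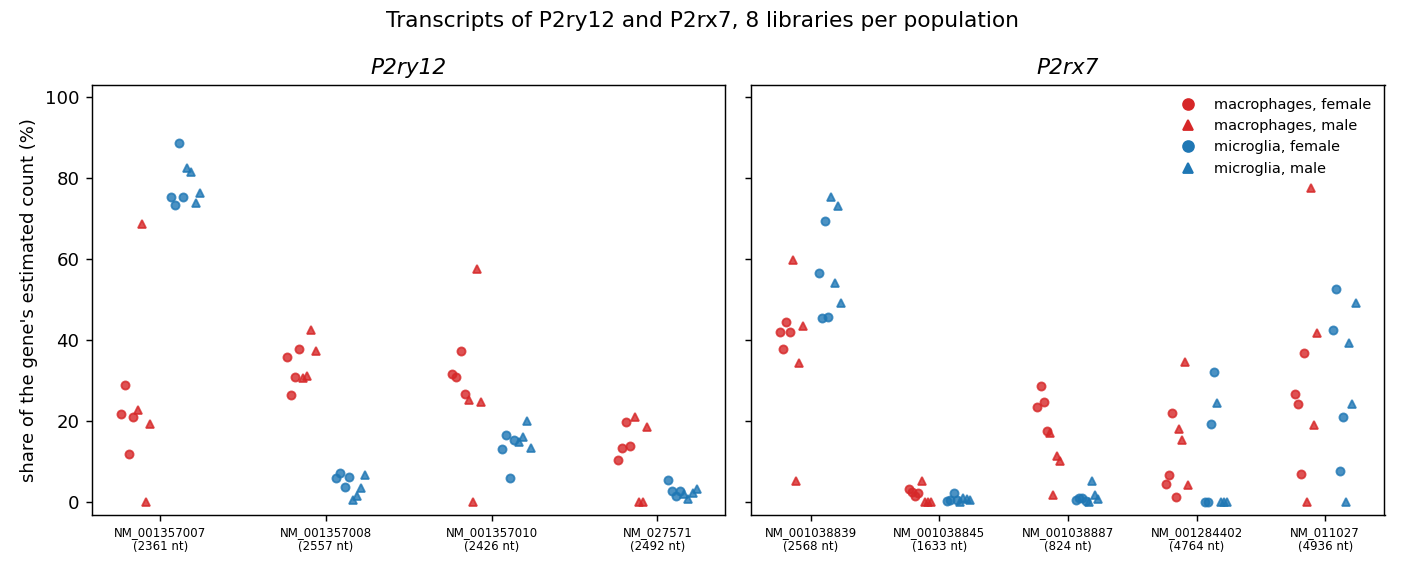
Share of the estimated count of P2ry12 (left) and P2rx7 (right) that RSEM gave to each RefSeq transcript, in percent, 1 point per library (red macrophages, blue microglia, circles female, triangles male). The 2361-base P2ry12 transcript lies above 73% in all microglia libraries and at 29.0% or less in 7 of 8 macrophage libraries.

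Overlapping genes were checked because the tables do not state whether counting used the strand. P2ry12 (chr3:59216271-59262985) and P2ry13 (chr3:59207892-59210882) lie within Med12l, a Mediator subunit gene on the opposite strand. Med12l was at 2.77 to 10.7 FPKM in microglia and 0.02 to 0.78 in macrophages, far below P2ry12, and reads of the 2 strands cannot be told apart. Adora3 (chr3:105904421-105908928) lies within Tmigd3 on its own strand, which was at 0 to 5.47 FPKM in microglia and 0 to 0.57 in macrophages. P2rx4 (chr5:122707518-122729739) overlaps Camkk2 on the opposite strand, at 1.22 to 7.51 FPKM in microglia and 0.99 to 6.10 in macrophages. P2rx7 (chr5:122643927-122692336) overlaps the microRNA gene Mir8115 and lies 15181 bases from P2rx4. P2ry6 (chr7:100937630-100975498) and Nt5e (chr9:88327609-88372089) overlap no other gene of the table, and Entpd1 (chr19:40612366-40741602) overlaps 3 predicted genes.

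Of 40 further genes of the pathway, 32 could be tested between populations and 24 of these passed the filter on low counts in each population. Of the 24, 4 were higher in microglia and 2 lower, and among all genes tested 6.64% were higher and 11.6% lower. The background was not held to the filter in each population, so these are shares of unlike sets. Among receptors, P2rx1, an ATP-gated channel, was at 0.42 to 13.5 FPKM in microglia and 0 to 0.39 in the 7 macrophage libraries tested, higher by 4.44 ± 1.24 (log2, edgeR adjusted p = 0.0284). The male CD163KO MONO macrophage library, at 10.6 FPKM, lay far above the other 7, and with that matched group added the call was lost (3.84 ± 1.38, edgeR adjusted p = 0.0796). P2ry10, a lysophospholipid receptor, had no count in any microglia library and 0 to 1.27 FPKM in macrophages, at least 53.4-fold lower in microglia against 3 counts over the group. P2ry14, the UDP-glucose receptor, was at 0 to 0.08 FPKM in microglia and 0 to 3.93 in macrophages. Both passed the filter through macrophages alone, so their levels are given with no test.

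Among enzymes, none passed the edgeR test as higher in microglia. Dpp4, a peptidase, was at no more than 0.03 FPKM in microglia and at up to 1.82 in macrophages. Bst1, which cleaves NAD, was at no more than 0.22 FPKM in microglia. In macrophages Bst1 was at up to 7.16 FPKM in the 7 libraries tested and at 45.0 in male CD163KO MONO. Dpp4 and Bst1 also passed the filter through macrophages alone and are given no test. Cd38, which cleaves NAD as well, was at 8.23 to 121.4 FPKM in macrophages and lower in microglia, at 0.15 to 1.72 (edgeR adjusted p = 3.93e-06). Among transporters and effectors, Slc28a2, a nucleoside carrier, was lower (0 to 0.89 against 0 to 3.74 FPKM, edgeR adjusted p = 0.0116). It had no count in 5 of 8 microglia libraries and over 3 counts in 2, so its fitted value depends on the prior count. Kcnk13, the potassium channel THIK-1 that follows P2ry12 signalling, was higher in microglia by 1.88 ± 0.51 (log2, adjusted p = 0.0242). Slc29a3, a lysosomal nucleoside carrier, was higher by 1.48 ± 0.21 (adjusted p = 4.78e-04). Pik3cg, a kinase downstream of Gi-coupled receptors, was higher by 1.16 ± 0.27 (adjusted p = 0.0107), a call lost with male CD163KO MONO added (0.88 ± 0.36, edgeR adjusted p = 0.118). The call of P2rx1 was lost without female CD163KO MONO, female CD163KO PFF, female WT MONO or female WT PFF (edgeR adjusted p = 0.0521 to 0.0877), and that of Kcnk13 without each of these or male CD163KO PFF (0.0559 to 0.0687). Cd38, Slc28a2, Slc29a3 and Pik3cg kept theirs with each of the 7 groups left out.

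The next comparison asked whether PFF changed the members relative to MONO, averaged over sex and genotype in 7 libraries per population. No member passed the test in either population. In macrophages the log2 changes ranged from -1.08 (Nt5e) to 0.65 (P2ry6), and P2ry6 was nearest to the threshold (0.65 ± 0.35, SE, edgeR adjusted p = 1). In microglia they ranged from 0.23 (Adora3) to 0.61 (P2ry13), with P2ry6 at 0.55 ± 0.33 (edgeR adjusted p = 0.785). Nt5e was too low in microglia to be tested. The background was 0% of 11988 genes in macrophages and 0% of 12725 in microglia by edgeR. At an unadjusted p under 0.05 there were 125 and 765 genes, and DESeq2 called 8 and 26. With 3 residual degrees of freedom, these SEs leave changes of P2ry12 in microglia (0.53 ± 1.13) undetermined. Without male WT PFF, P2ry12 was at -0.48 ± 0.23 for PFF in microglia (edgeR adjusted p = 0.686) and at -0.22 ± 0.36 in macrophages, against 0.10 ± 0.40 with it.

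CD163KO was compared with WT in the same way. In macrophages the changes ran from -0.40 ± 0.36 (P2ry6) to 2.92 ± 5.99 (Nt5e), and P2ry12 was at -0.30 ± 0.41, all with an edgeR adjusted p of 1. In microglia they ran from -0.72 ± 0.61 (P2ry13) to 0.06 ± 0.28 (Adora3), again with an adjusted p of 1. The background was 0.00834% of genes in macrophages, which was 1 gene, and 0% in microglia (166 genes at an unadjusted p under 0.05, 3 by DESeq2). Males against females gave -1.66 ± 5.02 (Nt5e) to 0.58 ± 0.50 (P2rx7) in macrophages and -0.49 ± 0.30 (P2rx7) to 1.59 ± 1.36 (P2ry12) in microglia, with an adjusted p of 1 and a background of 0% in both. At an unadjusted p under 0.05, 152 and 215 genes differed by sex, and DESeq2 called 17 and 20. The microglia fit by sex counts the female CD163KO MONO library, which held Y-linked reads, as female. P2ry12 in microglia was at 1397 and 1247 FPKM in female WT (MONO, PFF), 2137 and 1441 in female CD163KO, 2038 and 3532 in male WT and 2364 and 1409 in male CD163KO. The highest values thus came from male WT PFF and male CD163KO MONO, and without male WT PFF no member passed either. Without it, P2ry12 in microglia was at 0.16 ± 0.23 by sex and 0.28 ± 0.23 for CD163KO, against -0.56 ± 1.18 for CD163KO with it, and P2ry13 was at -0.32 ± 0.21 for CD163KO (edgeR adjusted p = 1 for each).

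**Figure D5:**
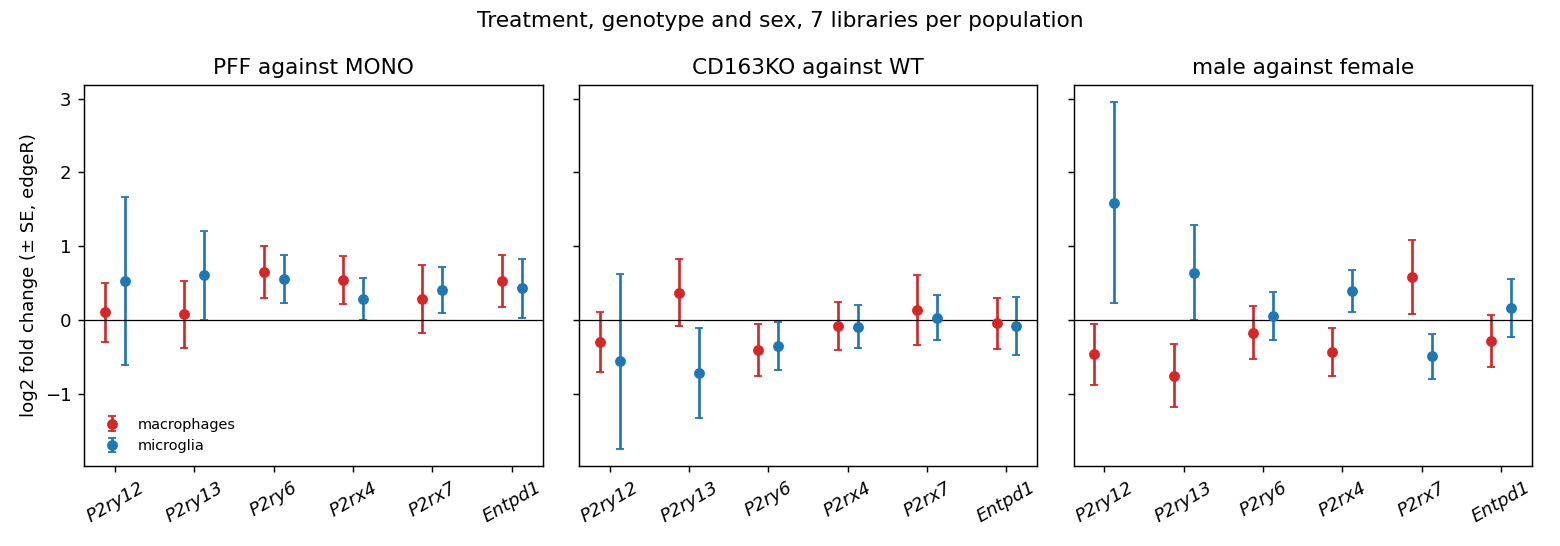
Log2 fold change with its SE (edgeR, 7 libraries per population) of 6 members for PFF over MONO, CD163KO over WT and male over female, in macrophages (red) and microglia (blue). No point passed the adjusted test, and the SE of P2ry12 in microglia is the widest. Nt5e and Adora3 are left out because macrophage libraries at 0 make their SE exceed 2.

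Whether the populations differed in their change was tested by the interaction. Nt5e is left out, since it was too low in microglia. For PFF against MONO the microglia effect minus the macrophage effect of the other 7 members lay between -0.26 (P2rx4) and 1.79 (Adora3), and for CD163KO against WT between -1.06 (P2ry13) and 0.08 (P2ry6). None of the 7 had an edgeR adjusted p below 1, with a background of 0% of 13704 genes in both (122 and 84 genes at an unadjusted p under 0.05, 44 and 48 by DESeq2). Of the 40 further pathway genes, 30 could be tested in macrophages, 26 in microglia and 32 for the interactions. None of those passed a test of treatment, genotype, sex or interaction. The values below are those of the genes with the smallest p in each comparison, none of which passed. In macrophages, Gnaq, the G protein of P2ry6, was at 1.21 ± 0.44 for PFF and -1.14 ± 0.43 for CD163KO (log2, SE, edgeR adjusted p = 1 for each). The second genes in macrophages were the nucleoside carriers Slc29a1 for PFF (0.44 ± 0.35) and Slc29a2 for CD163KO (4.43 ± 2.36). By sex, macrophages gave Slc29a1 (-0.83 ± 0.35) and the A1 receptor Adora1 (-5.97 ± 3.23). In microglia, Entpd5, an intracellular nucleotidase, was at 4.56 ± 1.89 and P2ry10b at -1.25 ± 0.57 for PFF (edgeR adjusted p = 0.776 for each). For CD163KO, microglia gave Entpd5 (3.02 ± 1.56) and the vesicular ATP carrier Slc17a9 (-0.42 ± 0.49), and by sex Slc28a2 (-6.13 ± 3.67) and P2rx1 (-0.80 ± 0.56). For the interactions, Gnaq (-1.51 ± 0.63 for PFF, 1.35 ± 0.63 for CD163KO) and Bst1 came first, and Bst1 is given no value because it was too low in microglia. Large fitted values such as those of Adora1 and Slc29a2 come from genes at 0 in some libraries and depend on the prior count.

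The study compared females separately, and these pairs hold 1 library each, so they have no test. A gene was counted when log2(FPKM + 1) differed by at least 1 and the FPKM was at least 1 in either library. In WT female macrophages, P2ry12 was at 55.4 FPKM with MONO and 16.9 with PFF, and P2rx7 at 39.2 and 17.9. Nt5e, at 1.16 and 0.08 FPKM, differed by exactly 1. These 3 of 8 members were lower, against 40.4% of all genes. After TMM scaling P2ry12 and P2rx7 were not past 1 and P2ry6 and P2rx4 were higher by 1.03 and 1.02 (5.74% of genes higher), while Nt5e fell by 1.04 (12.3% of genes lower). In CD163KO female macrophages, P2ry13 was at 38.6 FPKM with MONO and 100.2 with PFF, the 1 of 6 members compared that was higher (17.9% of genes), and it stayed past 1 after scaling, at 1.01 (13.7% of genes).

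With PFF, CD163KO female macrophages had more P2ry12 (45.9 against 16.9 FPKM), P2ry13 (100.2 against 37.7) and P2rx7 (46.1 against 17.9) than WT. These 3 of 6 members compare with 32.2% of genes higher, and none was past 1 after TMM scaling. With MONO, Nt5e was at 0 in CD163KO and 1.16 FPKM in WT, the 1 of 8 members lower (24.8% of genes, 15.6% after scaling, where Nt5e was again past 1). In female microglia no member differed by 1 in any of the 4 pairs. Among all genes, 19.5% did for PFF against MONO in WT, 20.9% in CD163KO, 30.5% for CD163KO against WT with MONO and 11.1% with PFF. The differences there ranged from -0.69 (P2ry6, CD163KO against WT with MONO) to 0.61 (P2ry12, the same pair, and P2ry6, PFF against MONO in CD163KO). Both of these pairs rest on the female CD163KO MONO microglia library with Y-linked reads.

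The genes most like each member were sought over all 16 libraries by Pearson's r of TMM-scaled log2(FPKM + 1), among 10332 other genes, as a description. The points share libraries and depth, and the split between populations dominates r for the members that separate them. P2ry12 was followed by Phyhd1 (r = 0.99), Gpr34 (0.99) and Gm5796 (0.98), and P2ry13 by Adap2 (0.97), Slco2b1 (0.97) and Sting1 (0.97). Adora3 was followed by Adgrg1, Col27a1 and Slc2a5 (each 0.99), and Entpd1 by Tcirg1, Ctsf and Inpp5d (each 0.97). P2rx4 was closest to the macrophage-rich genes Ctsc (0.97), Cd72 (0.95) and Cbr2 (0.95). Less close were the genes nearest to P2ry6 (Ap2a1, Nagpa and Engase, each 0.89) and to P2rx7 (Cd48 at 0.93, Mettl9 at 0.92 and Lipa at 0.89). Nt5e was nearest to Tnfrsf13c, a B cell receptor (0.93), Mmp25 (0.93) and Tuba8 (0.91). Nt5e itself was at 10.5 scaled FPKM in male CD163KO MONO macrophages and at most 1.55 in the 6 macrophage libraries that did not stand apart. Its r values thus rest largely on 1 library, which enters none of the main tests.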

How the data were processed

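RNA was measured in 16 libraries, 1 for each combination of population, sex, genotype and α-syn treatment. The authors mapped reads with Bowtie2 and estimated expression with RSEM (mm10 per the submitters' processing notes, versions not given in the sources used here). They deposited estimated counts per RefSeq transcript without normalization, and FPKM that the authors scaled to transcript length and library size. Transcripts not listed in a table were taken as 0. Of 27787 transcripts, 27632 were named by the RefSeq table of GRCm38.p6 and summed to 18580 genes. The 155 unnamed ones took at most 0.13% of a library's counts.

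Summed counts were rounded and tested with edgeR 4.0.16 (quasi-likelihood, TMM, filterByExpr, Benjamini-Hochberg over all genes, threshold 0.05, R 4.3.3). SEs were taken from the fold change and its F statistic. Populations were compared in 7 matched groups as blocks; treatment, genotype and sex were fitted additively in 7 libraries per population. Since libraries are single, p-values measure the spread between conditions, which may be technical. Female pairs used log2(FPKM + 1). Scripts were tested on simulated data. Alternatives were DESeq2 1.42.0, limma 3.58.1 on FPKM with pseudocounts of 1 and 0.1, RLE scaling, no filter, all 8 groups, both populations in 1 fit, no block, and each library left out. For female pairs they were pseudocounts of 0.1 and 5, no filter, an FPKM of at least 5, and TMM scaling.

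The members and lists were chosen with earlier results of these data known. Of the 40 further pathway genes, up to 4 that rose and 4 that fell most in a test are named, or the 2 with the smallest p. For likeness, 3 genes per member are named, among genes with a mean FPKM of at least 1. Cd38, Bst1, the transcripts and the checks of single markers were named after their values were seen. Python 3.11.15 was used with pandas 2.3.3, numpy 2.4.6 and matplotlib 3.10.9. Protein sequences were not analysed here.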

Additional observations from a re-analysis of the deposited data

Results flagged for a closer look

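Among the 8 libraries of a population, a member's highest or lowest FPKM was compared with its nearest neighbour by Dixon's limit (0.526 of the range for 8), in 16 sets. The sets span conditions, so a condition can stand out as well as a library. Chance alone marks about 1 in 20 only where values are normally distributed. That was not tested for these FPKM, and Nt5e was at 0 in 5 of 8 microglia libraries, so the rate may not hold. Of the 16 sets, 4 passed. P2ry12 was at 102.5 FPKM in male WT PFF macrophages, with 55.4 next. P2ry13 was at 186.5 FPKM in male CD163KO MONO macrophages, with 100.2 next. Nt5e was at 0.25 FPKM in male CD163KO PFF microglia, with 0.03 next. Nt5e was also at 15.2 FPKM in male CD163KO MONO macrophages, with 1.16 next, and this library enters none of the main tests. Apart from the microglia value, these come from the 2 matched groups that stood apart from the others.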

How the results depend on the processing

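P2ry12, P2ry13, Entpd1 and Adora3 were higher in microglia past the threshold in the main fit and all 14 alternatives. P2rx4 was lower past it on counts in every alternative but lost the call on FPKM with limma (log2 difference -0.38 with a pseudocount of 1 and -0.39 with 0.1). P2rx7, not called in any fit, turned from -0.43 to 0.44 and 0.45 there. P2ry6 passed on FPKM alone (1.58 and 1.60). Limma on FPKM differs from the main fit in tool, input and scaling at once. Nt5e had an adjusted p below 0.05 with DESeq2 (-4.08) and with edgeR without male WT PFF (-5.10), but passed the filter in macrophages alone. Among all genes the edgeR calls between populations were 910 higher and 1589 lower in microglia, and those of limma on FPKM 5600 higher and 676 lower.

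Counts of all genes called moved more. Between populations 2499 genes passed by edgeR, 4716 by DESeq2, 6276 and 6516 by limma with pseudocounts of 1 and 0.1, and 1767 to 4869 with a matched group left out, the highest without male WT PFF. For PFF against MONO in macrophages, 0 passed by edgeR, 8 by DESeq2, 2 and 1 by limma, and 0 to 4 with a library left out. For CD163KO against WT in macrophages these were 1, then 2, 4 and 5, and 0 to 5. For male against female in macrophages they were 0, then 17, 10 and 12, and 0 to 7, with 1 each for no filter, all 8 groups and both populations in 1 fit. In microglia, PFF against MONO had 0 by edgeR, 26 by DESeq2, 11 with no filter, 1 by limma with a pseudocount of 1, 1 with both populations in 1 fit, and 0 to 1 with a library left out. CD163KO against WT had 0, then 3 by DESeq2 and 19 with no filter. Male against female had 0, then 20 by DESeq2, 6 with no filter, 5 and 3 by limma, and 0 to 3 with a library left out. The interactions had 0, then 44 (PFF) and 48 (CD163KO) by DESeq2, and 0 to 1 with a matched group left out. Leaving out male WT PFF gave the highest of these counts in macrophages. In microglia it gave 2 by sex, and the 3 came without the library labelled female CD163KO MONO. The 1 gene called for CD163KO in macrophages was lost without female CD163KO PFF, female WT PFF or male CD163KO PFF. The cause was not tested.

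No member passed in any of these alternatives for treatment, genotype, sex or interaction. Their signs there often changed between settings, so no direction is given for them. In female macrophages, the members past 1 fell from 3 to 1 with a pseudocount of 5 (PFF against MONO, WT), from 1 to 0 with a pseudocount of 5 or an FPKM of at least 5 (CD163KO against WT, MONO) and from 3 to 0 with TMM scaling (CD163KO against WT, PFF). The counts of all genes in the female pairs moved by over 1.5 times in 23 of 40 alternatives. The transcript shares of P2ry12 and P2rx7 were also computed in 8 groups (54.1 and -15.5 points) and in 6 without male WT PFF (57.6 and -19.7), both chosen after seeing the data, and 3 transcripts passed the correction in 8 groups (adjusted p = 0.0365, exact permutation test) and none in 7 or 6. The comparison between populations and the transcript shares were already paired by matched group. For treatment, genotype and sex, no paired analysis was possible because each group is 1 library and the labels give no replicate numbers. Depth limits Nt5e in both populations and Adora3 in macrophages.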
